A study of Mus musculus with 10 samples.

Results

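Oxidative phosphorylation subunit genes were examined in microglia of 3xTg AD mice treated with glatiramer acetate (GA) or PBS. Members were chosen by symbol: *Nduf*, *Sdh*, *Uqcr*, *Cox4* to *Cox8* and *Atp5* genes of the nucleus, and the *mt-Nd*, *mt-Co*, *mt-Cytb* and *mt-Atp* genes of the mitochondrial genome. Symbols with "-ps" were left out and at least 100 counts summed over the 10 libraries were required. Of 55453 genes in the table, 109 symbols matched, 8 of these held "-ps", and 86 of the remaining 101 reached the minimum, 78 of them nuclear and 8 mitochondrial. The summed count was the measured value that chose the members. Just inside the minimum stood *mt-Nd3* with 187 counts, *Cox6b2* with 350 and *Ndufs5* with 488, and just outside it *Cox7a1* with 28 and *Cox4i2* with 15. All 86 members, and none of the 15 symbols under the minimum, also passed the filter on low counts of the fit.

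All 10 libraries came from female 3xTg AD mice over 15 months old, 5 from mice given weekly injections of PBS and 5 from mice given 0.1 mg of GA weekly, for 8 weeks in both groups. The 3xTg line carries mutant human APP and tau transgenes under a Thy1 promoter, which is active in neurons, together with a mutant presenilin gene, and PBS and GA mice alike carry all of these. The libraries came from hippocampal cells sorted as CD11b+ with intermediate CD45, and a library without the transgenes was not analysed here. PBS libraries are named 388_1 to 388_5 by their titles, and GA libraries 394_1, 394_2, 400_1, 400_2 and 400_3. The first part of the title divides the groups completely, so it and the treatment cannot be told apart, and the sources used here do not say what it stands for.

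Depth ran from 32332185 to 38764643 counts per library. The 8 microglial markers summed to between 50412 and 60370 TMM-scaled CPM (counts scaled to a common library size) per library, against 10.9 to 446 CPM for 10 neutrophil markers, 28.5 to 85.5 CPM for 7 monocyte markers, 43.2 to 246 CPM for 6 border macrophage markers, 247 to 354 CPM for 7 astrocyte markers and 175 to 218 CPM for 7 oligodendrocyte markers. The neutrophil sum was 259 ± 163 CPM (SD, n = 5) in PBS and 69.1 ± 66.8 CPM (SD, n = 5) in GA libraries, and the monocyte sum 55.6 ± 23.6 and 36.5 ± 4.76 CPM. Of the tested markers, 7 of 8 neutrophil and 3 of 5 monocyte genes were lower in GA at an unadjusted edgeR p under 0.05. Over all 14481 genes tested, 3.17% were. At an adjusted edgeR p under 0.05, 0 of these markers were lower (lowest adjusted p = 0.847). The part of these markers in the values below was not tested. In these bulk samples, fewer cells of a type and less RNA per cell cannot be told apart.

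Oxidative phosphorylation passes electrons from NADH and succinate along complexes I to IV of the inner mitochondrial membrane, and complex V uses the proton gradient so built to make ATP. Most subunits are encoded in the nucleus and imported, whereas the mitochondrial genome encodes core subunits of complexes I, III, IV and V. Both genomes therefore have to supply the same complexes, and complex II is wholly nuclear. Members were assigned to complexes by symbol alone, so every *Nduf* gene, *Ndufa4* included, is counted under complex I here. Microglia can draw ATP from this pathway or from glycolysis, and the balance between them is known to shift when the cells are activated.

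The mitochondrial genome encodes 13 subunits, and 5 of them were listed at 0 counts in all 10 libraries: *mt-Co2*, *mt-Co3*, *mt-Atp6*, *mt-Atp8* and *mt-Nd4l*. Genes beside them on the same genome were counted 127616 times (*mt-Cytb*), 75911 times (*mt-Nd1*) and 68000 times (*mt-Co1*). *mt-Co2* and *mt-Co3* encode catalytic core subunits of complex IV, and *mt-Atp6* and *mt-Atp8* encode parts of the membrane sector of complex V. A count of 0 allows up to 3 counts of 352950173 in all libraries by counting error alone, but these zeros are not read here as absence of the transcripts, since nearly all bases of 4 of the 5 genes also occur elsewhere in the genome. The mouse nuclear genome holds copies of mitochondrial DNA, annotated on chromosomes 1 and 2 as pseudogenes. The sequences below show the starts of an uncounted gene and of its copy, and a nearly uncounted gene and its copy. They also show the start of the aligned stretch of *mt-Co1* and the copy *Gm29216*, and a gene with no 100-base stretch in another annotated gene. They are mRNA-sense bases of GENCODE M21 transcripts (GRCm38), and capitals mark the bases at which a gene and its copy differ.
mt-Co2, bases 1 to 100, chrM:7013-7112, + strand: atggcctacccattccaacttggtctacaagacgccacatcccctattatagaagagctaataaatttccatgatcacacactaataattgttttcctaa
Gm28661, chr1:24615466-24615565, - strand: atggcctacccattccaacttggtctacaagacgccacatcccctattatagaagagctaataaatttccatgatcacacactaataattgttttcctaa
mt-Nd3, bases 1 to 60, chrM:9459-9518, + strand: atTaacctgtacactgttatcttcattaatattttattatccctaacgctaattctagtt
Gm28438, chr1:24613060-24613119, - strand: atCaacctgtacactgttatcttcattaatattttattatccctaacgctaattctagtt
mt-Co1, bases 1054 to 1113, chrM:6381-6440, + strand: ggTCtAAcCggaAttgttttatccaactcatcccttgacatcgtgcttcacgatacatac
Gm29216, chr1:24616138-24616197, - strand: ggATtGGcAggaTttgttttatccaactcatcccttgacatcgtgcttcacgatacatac
mt-Cytb, bases 1 to 100, chrM:14145-14244, + strand: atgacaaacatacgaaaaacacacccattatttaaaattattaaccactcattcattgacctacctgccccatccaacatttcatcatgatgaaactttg

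Over their whole aligned length, *mt-Co2* and *Gm28661* shared 681 of 681 bases, *mt-Atp6* and *Gm10925* 678 of 678, *mt-Co3* and *Gm28437* 783 of 783, and *mt-Nd4l* and *Gm10222* 294 of 294. *mt-Nd3* and *Gm28438* differed at 1 of 345 bases, written T3C with positions counted from 1 at the gene's first base. *mt-Co1* was aligned with *Gm29216* only over its last 492 bases, 1054 to 1545. The 6 differences were T1056A, C1057T, A1059G, A1060G, C1062A and A1066T, all within the printed stretch. They lie close together at the start of the aligned bases, and after base 1066 the sequences were identical. Whether the bases up to 1066 belong to the copied stretch or lie before it was not tested. *mt-Nd4* was identical to *Gm28439* over its first 876 of 1378 bases, and the next stretch shows that boundary, with the copied bases in capitals.
mt-Nd4, bases 817 to 936, chrM:10983-11102, + strand: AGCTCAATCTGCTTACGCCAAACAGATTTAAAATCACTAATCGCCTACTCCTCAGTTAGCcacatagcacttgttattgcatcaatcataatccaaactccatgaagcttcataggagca

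Genes with nearly all of their sequence in a nuclear copy had few counts or none. To measure this, each gene was divided into all its windows of 100 bases. Of those windows, 99.5% of *mt-Co2*, 99.5% of *mt-Atp6*, 99.9% of *mt-Co3* and 98.5% of *mt-Nd4l* were found in an annotated nuclear gene, and all 4 were at 0. For *mt-Nd3* the share was 97.6%, with 6 windows of its own and 187 counts. For *mt-Nd4* the share was 60.8% with 19175 counts, for *mt-Co1* 30.8% with 68000 counts, and for *mt-Nd2* 3.19% with 17471 counts. No window of *mt-Nd1*, *mt-Nd5*, *mt-Nd6* or *mt-Cytb* was shared, and these genes had 75911, 56184, 9698 and 127616 counts. Per window found in no other gene, *mt-Nd3* had 31.2 counts, *mt-Nd4* 38.2, *mt-Co1* 68 and *mt-Nd2* 19.2, and the 4 counted genes that share none had 23.1 (*mt-Nd6*) to 122 (*mt-Cytb*). The 4 genes at 0 had such windows too, 1 in *mt-Co3* and 3 each in *mt-Co2*, *mt-Atp6* and *mt-Nd4l*, with 0 counts.

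*mt-Atp8* was the exception, with 0 counts and 0 of its 105 windows in an annotated gene. It starts in the interval between *mt-Co2* and *mt-Atp6*, and its last 43 bases (21.1%) are also the first of *mt-Atp6*, a stretch that is shorter than a window and identical in the copy *Gm10925*. On the mitochondrial genome 230 bases separate *mt-Co2* and *mt-Atp6*, and 233 bases separate their copies *Gm28661* and *Gm10925* on chromosome 1. *Gm28661* is annotated only to base 681 of the 684 bases of *mt-Co2*, so the intervals do not start at matching points. That interval of chromosome 1 carries no annotated gene in the release used, and its sequence was not compared. The copies themselves took up few reads: the 10 annotated copies had between 0 and 19 counts each over all libraries, with 19 for *Gm13340*, 7 for *Gm13341*, 3 for *Gm29216*, 1 for *Gm13339* and *Gm28438*, and 0 for the other 5. How reads that fit several places were treated is not given in the sources used here, and its part in the zeros was not tested. Comparisons of the mitochondrial genome below therefore rest on 8 of its 13 subunits, and those of complex V on nuclear subunits alone.

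**Figure D1:**
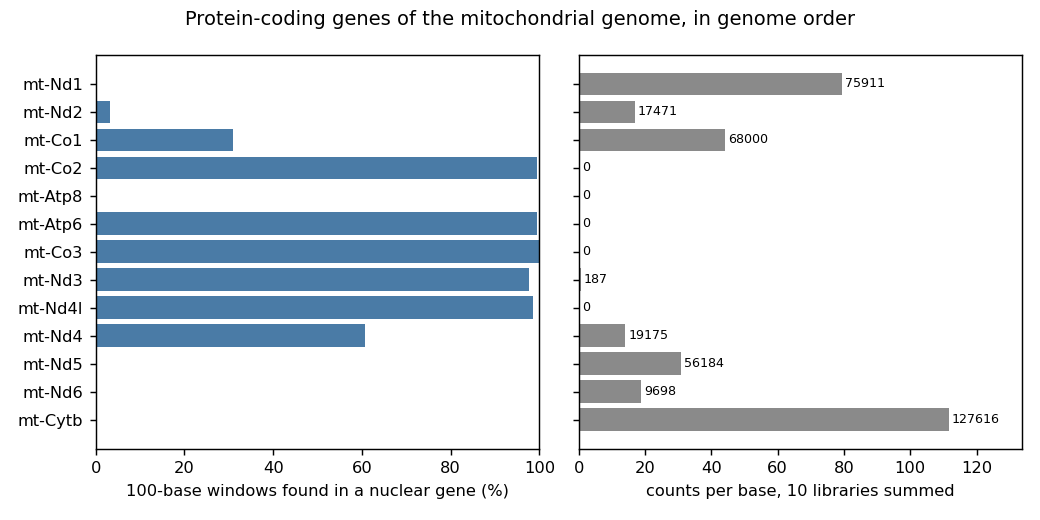
The 13 protein-coding genes of the mitochondrial genome in genome order, with the share of 100-base windows found in an annotated nuclear gene (left, %) and the counts per base summed over 10 libraries (right, total counts printed at the bars). The 4 genes with over 98% of windows shared, and *mt-Atp8*, are at 0 counts, and *mt-Nd3* is at 187.

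The 78 nuclear members shared fewer bases with other genes. For 26 of them any 100-base window occurred in another annotated gene, and for 11 of them over 10% of windows did, led by *Atp5o*, which has 2 identifiers in the annotation and was left out of levels per length. *Ndufs5*, an accessory subunit of complex I with 488 counts, had 19.8% of its windows in *BC002163*, and *Ndufb4*, with 2207 counts, had 33.4% in *Ndufb4c*. Levels of such members are uncertain for this reason. Exons of 11 nuclear members shared over 10% of their bases with an overlapping gene, among them *Cox6a2* at 10.3% with *Itgad*, and whether the counting used strand is not given in the sources used here.

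Levels were compared between genes as CPM divided by transcript length in kilobases (RPKM), with the shortest principal transcript as the length, as a mean over 10 libraries ± SD. The most abundant nuclear subunit per kilobase was *Atp5b*, the catalytic beta subunit of ATP synthase, at 267 ± 19.2 RPKM (SD, n = 10). Complex IV was led by *Cox4i1*, a core-binding regulatory subunit, at 176 ± 18.0 RPKM, and complex III by *Uqcrc1*, a matrix-facing core protein, at 131 ± 9.70 RPKM. Complex I was led by *Ndufs7*, an iron-sulfur subunit, at 100.1 ± 7.76 RPKM, and complex II by *Sdhb*, its iron-sulfur subunit, at 90.2 ± 7.76 RPKM. Medians of the nuclear members were 39.2 RPKM for complex I, 81.3 for complex II, 50.6 for complex III, 44.4 for complex IV and 59.1 for complex V. In GRCm38 these genes lie at chr10:128083273-128090391 (*Atp5b*), chr8:120668222-120674207 (*Cox4i1*), chr9:108936633-108949623 (*Uqcrc1*), chr10:80249121-80256794 (*Ndufs7*) and chr4:140961203-140979193 (*Sdhb*), all on the + strand. The order within a complex depends on the length used: with all exons of a gene joined, the leading genes became *Ndufc2* for complex I, *Sdhd* for complex II, *Cox6a1* for complex IV and *Atp5a1* for complex V, while *Uqcrc1* still led complex III.

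Among counted mitochondrial genes, *mt-Cytb*, the cytochrome b of complex III, stood highest at 317 ± 43.7 RPKM (SD, n = 10). *mt-Nd1*, a membrane-arm subunit of complex I, was at 225 RPKM and *mt-Co1*, the catalytic core of complex IV, at 125 ± 17.9 RPKM. The other complex I genes were at 87.5 (*mt-Nd5*), 53.0 (*mt-Nd6*), 47.8 (*mt-Nd2*), 39.5 (*mt-Nd4*) and 1.53 RPKM (*mt-Nd3*). The levels of *mt-Nd3*, *mt-Nd4* and *mt-Co1*, which share windows with nuclear copies, are uncertain.

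Several subunits exist as paralogous isoforms whose use differs between tissues, and 1 isoform led each family in these cells. *Cox4i1* was at 176 RPKM and *Cox4i2*, the isoform linked to hypoxia and lung, at 0.0586, with 15 counts in 10 libraries. *Cox6a1*, the widespread isoform, was at 135 RPKM and *Cox6a2*, known as the heart and muscle isoform, at 12.9 RPKM with 3085 counts. *Cox6b1* was at 106 RPKM and *Cox6b2*, known from testis, at 2.14 RPKM. *Cox7a2* was at 54.5 RPKM, *Cox7a2l*, which helps join complexes III and IV, at 23.2 and *Cox7a1*, a muscle isoform, at 0.205. *Cox8a* was at 97.3 RPKM, with 3 counts in all for *Cox8b* and 0 for *Cox8c*. *Cox7b* was at 24.4 and *Ndufa4* at 83.9 RPKM, while their paralogues *Cox7b2* and *Ndufa4l2* had 0 counts. The 3 genes that encode the same mature c subunit of the ATP synthase ring were at 73.4 (*Atp5g3*), 40.3 (*Atp5g1*) and 12.7 RPKM (*Atp5g2*), and with all exons joined at 24.0, 4.89 and 3.34, in the same order.

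**Figure D2:**
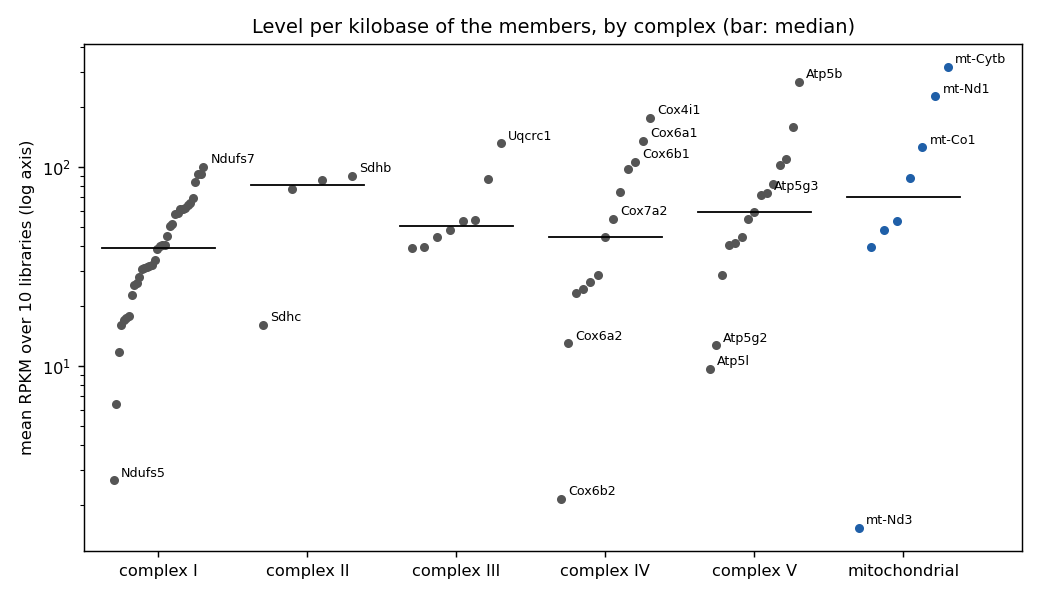
Mean level of each member but *Atp5o* and *Atp5md*, which have no level per length here, over 10 libraries in RPKM, on a log axis, by complex for nuclear members and apart for the 8 mitochondrial members, with the median of each set as a bar. *Atp5b* and *mt-Cytb* are highest, and *Cox6b2*, *Ndufs5* and *mt-Nd3* lie lowest at 2.14, 2.65 and 1.53 RPKM.

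The comparison of GA with PBS addresses whether the treatment changed microglial expression. No member passed edgeR's quasi-likelihood test with Benjamini-Hochberg adjustment at 0.05, and 0% of the 14481 genes tested passed it. At an unadjusted p under 0.05, 0 of 78 nuclear and 0 of 8 mitochondrial members were called higher, where 2.58% of all genes were, and 0 of 78 and 0 of 8 were called lower, where 3.17% of all genes were. DESeq2 and limma-voom also called 0 members at either threshold. PBS and GA libraries of every member overlapped, as against no overlap for 0.891% of genes tested. The standard error of the log2 fold change had a median of 0.10 over nuclear and 0.12 over mitochondrial members, against 0.135 over all genes, and 4 of 78 nuclear and 1 of 8 mitochondrial members had a fitted change beyond 0.2 in either direction, where 29.1% of all genes did.

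Most members had fitted values on the side of lower expression in GA, by small amounts. The log2 fold change was below 0 for 62 of 78 nuclear members and 8 of 8 mitochondrial members, where 49.9% of all genes tested were below 0. The median was -0.05 over nuclear members and -0.15 over mitochondrial members, against 0.00 over all genes tested. By complex, 29 of 36 nuclear members of complex I were below 0 (median -0.06), 3 of 4 of complex II (-0.05), 5 of 8 of complex III (-0.02), 11 of 13 of complex IV (-0.06) and 14 of 17 of complex V (-0.03). Cytosolic ribosomal protein genes had values below 0 for 70 of 91, with a median of -0.06. The nuclear total turned on a single library. Without PBS library 388_4, 34 of 78 nuclear members were below 0, with a median of 0.02, and the mitochondrial median was -0.04 with 7 of 8 below 0. The mitochondrial median was -0.06 without 388_5, with 8 of 8 below 0, and -0.02 with 6 of 8 below 0 once trends with gene length and GC content were removed. Without any other single library, 55 to 69 nuclear members were below 0.

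**Figure D3:**
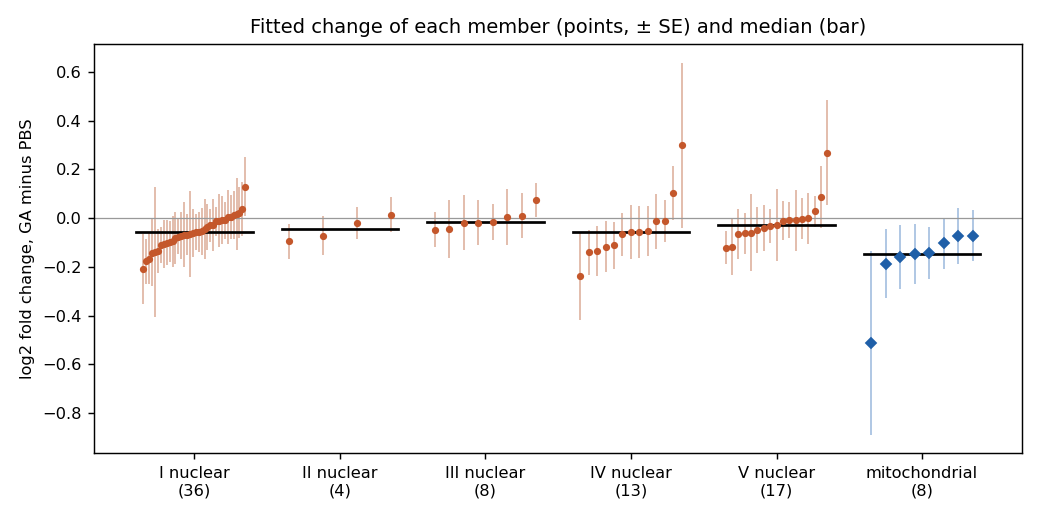
Fitted log2 fold change (GA minus PBS) of each member with its standard error, by complex for nuclear members and apart for mitochondrial members, with the number of members in brackets and the median as a bar. The medians lie between -0.15 and -0.02, and most error bars reach 0.

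**Figure D4:**
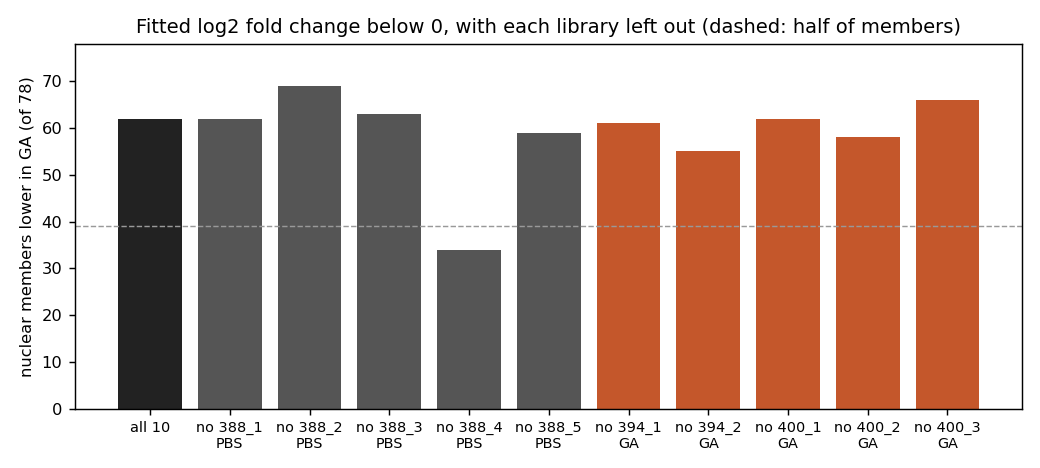
Number of the 78 nuclear members with a fitted log2 fold change below 0, with all 10 libraries and with each library left out, with a dashed line where equal numbers lie above and below 0. The count is 62 with all libraries, 34 without 388_4 and 55 to 69 without any other library.

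Library 388_4 stood apart within the PBS group for this gene set. It held the highest value of 57 of 78 nuclear members (73.1%), whereas it was highest for 20.6% and lowest for 19.8% of all genes tested, both the most of any library. Library 388_2, also PBS, was lowest for 36 nuclear members (46.2%) and for 9.79% of all genes. The median deviation of nuclear members from their 10-library mean was 0.24 on the log2 scale in 388_4 and -0.14 in 388_2, and lay between -0.08 and 0.04 in the other 8 libraries. By complex, 388_4 was highest for 27 of 36 members of complex I, 1 of 4 of complex II, 6 of 8 of complex III, 10 of 13 of complex IV and 13 of 17 of complex V. The complex II median was 0.11 in 388_4 and 0.13 in 388_5. Against this pattern, *Uqcrfs1*, the Rieske iron-sulfur protein of complex III, had its lowest value in 388_4, at 46.8 CPM with 50.9 to 57.3 CPM elsewhere, and was named after its values were seen.

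Mitochondrial members stood high in both 388_4 and 388_5. *mt-Nd1* to *mt-Nd6*, 6 members, were highest in 388_4, and *mt-Co1* and *mt-Cytb* in 388_5. The median deviation of the 8 was 0.40 in 388_4, 0.27 in 388_5 and -0.23 to 0.10 in the other libraries. Nuclear members of 388_5 had a median deviation of 0.02, so the 2 genomes did not move by like amounts there. The same library 388_4 had a median deviation of 0.30 for cytosolic ribosomal protein genes, the largest of the 10, with 388_2 at -0.23, the smallest. It also had the largest border macrophage (246 CPM), monocyte (85.5 CPM) and endothelial (75.8 CPM) marker sums, the smallest microglial sum (50412 CPM), and neutrophil markers at 286 CPM, within the 37.9 to 446 CPM of the PBS group. The part of these in the members' values was not tested.

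**Figure D5:**
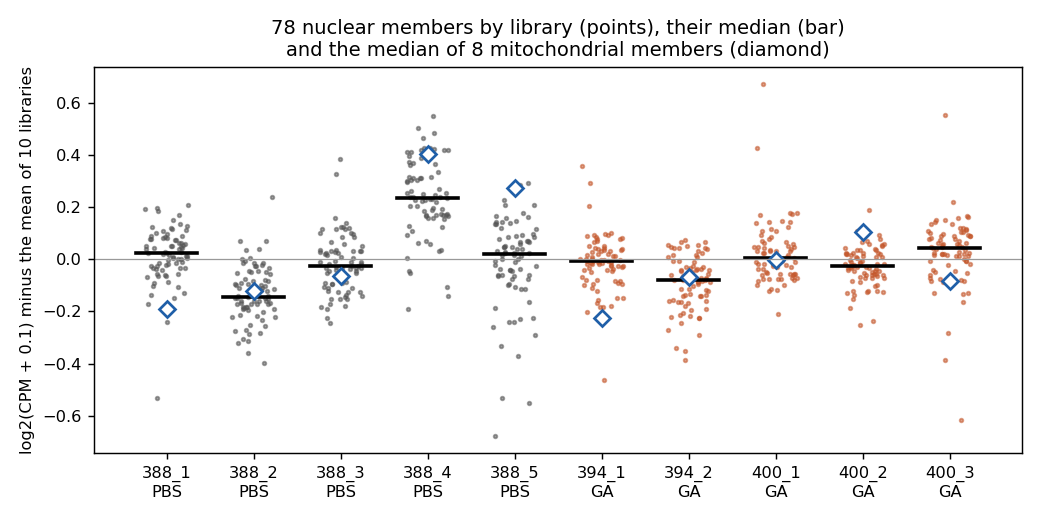
Deviation of each nuclear member from its mean over 10 libraries on the log2(CPM + 0.1) scale (points), with their median (bar) and the median of the 8 mitochondrial members (diamond), by library and treatment. Library 388_4 lies highest at 0.24 (nuclear) and 0.40 (mitochondrial), and the nuclear medians of the other 9 libraries lie between -0.14 and 0.04.

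Summed over members, nuclear subunits took 0.446% ± 0.0316 (SD, n = 5) of counts in PBS and 0.433% ± 0.0101 (SD, n = 5) in GA libraries. By library the share was 0.450%, 0.409%, 0.432%, 0.495% and 0.441% in 388_1 to 388_5, and 0.442%, 0.420%, 0.434%, 0.427% and 0.444% in 394_1, 394_2, 400_1, 400_2 and 400_3. All 5 GA values lay inside the PBS range. Mitochondrial members took 0.110% ± 0.0176 of counts in PBS and 0.102% ± 0.00739 in GA, with 0.0933%, 0.0990%, 0.101%, 0.132% and 0.127% in the PBS libraries and 0.0914%, 0.102%, 0.105%, 0.111% and 0.0988% in the GA libraries, in the same order. The lowest value was the GA library 394_1, and the 2 highest were the PBS libraries 388_4 and 388_5. The nuclear share was 4.09 ± 0.515 times the mitochondrial share in PBS and 4.28 ± 0.389 times in GA, over the 8 counted mitochondrial genes.

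The spread of the members was smaller between GA than between PBS libraries, as a description without a test. The median coefficient of variation of CPM was 12.6% in PBS and 5.645% in GA over nuclear members, 19.9% and 8.86% over mitochondrial members, and 16.6% and 12.2% over all genes tested. Without 388_4 the PBS value over nuclear members was 9.01%, and over all genes 14.55%.

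Single members are given next, with CPM in 388_1 to 388_5 and then in 394_1, 394_2, 400_1, 400_2 and 400_3. *Atp5b* was at 515, 454, 497, 523 and 597 CPM in PBS and 518, 481, 513, 499 and 521 CPM in GA. The GA values lay inside the PBS range, and the log2 fold change was -0.03 ± 0.07 (SE; edgeR adjusted p = 0.973, exact permutation p = 0.722). *Cox4i1* was at 127, 109, 130, 160 and 144 CPM in PBS and 134, 127, 126, 124 and 130 CPM in GA. Here 388_4 and 388_5 were the 2 highest, and the log2 fold change was -0.07 ± 0.09 (SE; edgeR adjusted p = 0.951, exact permutation p = 0.579). *Uqcrc1*, *Sdhb* and *Ndufs7* had log2 fold changes of -0.02 ± 0.07, -0.07 ± 0.08 and -0.11 ± 0.07 (SE), with exact permutation p-values of 0.889, 0.421 and 0.183.

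The nuclear members at the ends of the range were isoforms of low abundance, both on chromosome 7. *Cox6a2* (chr7:128205435-128206387, - strand), with the lowest log2 fold change, was at 5.94, 8.54, 11.3, 11.9 and 9.97 CPM in PBS and 7.49, 7.40, 7.45, 8.43 and 9.56 CPM in GA. PBS library 388_1 was the lowest of all 10, so the groups overlapped, and the log2 fold change was -0.24 ± 0.18 (SE; edgeR adjusted p = 0.910, exact permutation p = 0.317). Without 388_1 its log2 fold change was -0.37, with an edgeR adjusted p of 0.828, and its unadjusted p passed 0.05. *Cox6b2* (chr7:4751792-4753094, - strand), with the highest log2 fold change, was counted 43, 31, 28, 30 and 22 times in PBS and 42, 36, 55, 40 and 23 times in GA. Its log2 fold change was 0.30 ± 0.34 (SE; edgeR adjusted p = 0.945, exact permutation p = 0.349), and the 2 groups covered much the same counts.

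*Ndufs4* (chr13:114287795-114388258, - strand), an accessory subunit of complex I known from a mouse model of Leigh syndrome, had the smallest edgeR p-value of any member and was named for this after its values were seen. It was at 29.7, 27.7, 30.3, 37.0 and 27.8 CPM in PBS and 25.8, 26.6, 28.2, 28.3 and 26.0 CPM in GA. The 388_4 value stood above the rest, 2 GA values lay above the lowest PBS value, and the log2 fold change was -0.18 ± 0.09 (SE; edgeR adjusted p = 0.894, exact permutation p = 0.0476). By the two-sided exact permutation test 1 of 78 nuclear and 1 of 8 mitochondrial members were under 0.05, where 5.84% of all genes were.

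*mt-Nd3* was the other, with 19, 19, 18, 30 and 21 counts in PBS and 8, 18, 14, 20 and 20 counts in GA. The highest count was in 388_4 and the lowest in 394_1, and the remaining 8 libraries held 14 to 21. Its log2 fold change was -0.51 ± 0.38 (SE; edgeR adjusted p = 0.910, exact permutation p = 0.0317). Of its 249 windows, 6 occur in no other annotated gene.

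*mt-Cytb*, *mt-Nd1* and *mt-Co1* had the most counts of the mitochondrial members. *mt-Cytb* was at 302, 339, 343, 425 and 467 CPM in PBS and 317, 362, 356, 378 and 334 CPM in GA, with a log2 fold change of -0.10 ± 0.11 (SE; edgeR adjusted p = 0.940, exact permutation p = 0.492). *mt-Co1* was at 169, 179, 187, 223 and 255 CPM in PBS and 161, 193, 188, 198 and 176 CPM in GA, with a log2 fold change of -0.14 ± 0.11 (SE; edgeR adjusted p = 0.910, exact permutation p = 0.341). *mt-Nd1* was at 204, 180, 194, 299 and 257 CPM in PBS and 185, 190, 221, 227 and 200 CPM in GA, with a log2 fold change of -0.15 ± 0.12 (SE; edgeR adjusted p = 0.922, exact permutation p = 0.437). In all 3 genes the PBS libraries 388_4 and 388_5 were above every GA library and the other 3 PBS libraries lay among or below them. *mt-Nd2*, *mt-Nd4*, *mt-Nd5* and *mt-Nd6* had log2 fold changes of -0.19 ± 0.14, -0.16 ± 0.13, -0.07 ± 0.10 and -0.07 ± 0.11 (SE), with exact permutation p-values of 0.397, 0.389, 0.643 and 0.651.

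Within the GA group, libraries titled 400 were compared with those titled 394. No member passed the adjusted threshold, which 0.0133% of the 15076 genes tested did. At an unadjusted p under 0.05, 2 of 8 mitochondrial members were higher in the 400 libraries and 0 of 78 nuclear members, where 5.01% of all genes were, and 0 members were lower, where 5.13% of all genes were. *mt-Nd2*, a membrane-arm subunit of complex I, was at 39.9 and 41.2 CPM in the 394 libraries and 50.2, 53.0 and 47.7 CPM in the 400 libraries. All 3 of the 400 libraries were above both 394 libraries for this gene, as for 4 of 8 mitochondrial members, 16 of 78 nuclear members and 14.1% of all genes. Its log2 fold change was 0.31 ± 0.09 (SE; edgeR adjusted p = 0.301). *mt-Nd1* had a log2 fold change of 0.21 ± 0.07 (SE; edgeR adjusted p = 0.396). Fitted values were above 0 for 8 of 8 mitochondrial and 56 of 78 nuclear members, where 51.5% of all genes were, with medians of 0.19 and 0.06. Against PBS, the 394 libraries alone gave medians of -0.23 (mitochondrial) and -0.06 (nuclear), and the 400 libraries alone -0.07 and -0.02.

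Other genes of the pathway were taken from lists of further subunits, assembly factors, regulators, mitochondrial DNA expression and carriers. Of 89 genes, 82 were tested, 47 had a log2 fold change above 0 and 35 below 0, and the median was 0.02. Assembly factors, which build the complexes but are not part of them, were above 0 for 30 of 52, with a range from -0.29 (*Cox20*) to 0.28 (*Sco1*), both factors of complex IV. Genes for replication and expression of mitochondrial DNA, such as the helicase *Twnk*, were above 0 for 8 of 12, with a median of 0.10. *Pprc1*, a coactivator of the PGC-1 family that acts on nuclear genes for mitochondrial proteins, was the 1 gene of the 82 with an unadjusted p under 0.05, where 5.75% of all genes were. It was at 91.1, 89.4, 83.6, 77.0 and 96.9 CPM in PBS and 94.6, 84.7, 109, 108 and 104 CPM in GA, a log2 fold change of 0.19 ± 0.09 (SE; edgeR adjusted p = 0.854, exact permutation p = 0.0794). Its 3 highest values were the 400 libraries and its lowest was 388_4, and with the 394 libraries alone the log2 fold change was 0.04. The unadjusted p no longer passed 0.05 without 388_2, 388_3, 388_4, 400_1, 400_2 or 400_3, each left out alone, with log2 fold changes of 0.15 to 0.20.

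Nuclear members are known targets of a few factors that act near the start site, so the DNA before their starts was searched for 4 short motifs chosen after the data were seen. Windows from 250 bases before to 50 bases after the start came from RefSeq (GRCm38.p6) and were matched for 64 of 78 nuclear members. GCATGCGC, the palindrome-like core of nuclear respiratory factor 1, was in 10 of 64 members (15.6%) and 3.05% of all 27025 genes of the table, on either strand. CCGGAAG, the core bound by ETS factors including GABP, was in 17 of 64 members (26.6%) and 9.93% of genes. AAGATGGC, a YY1 motif, was in 9 members (14.1%) and 3.19% of genes, and CAAGGTCA, bound by estrogen-related receptors, in 4 members (6.25%) and 1.76% of genes. ETS and YY1 letters may overlap, and did in 0 members. The following 100-base stretches show 1 match each in members of complexes I, III and V, in capitals, read 5′ to 3′ on the gene's strand and numbered from the start at 0.
Ndufa6, -131 to -32, chr15:82354323-82354422, - strand: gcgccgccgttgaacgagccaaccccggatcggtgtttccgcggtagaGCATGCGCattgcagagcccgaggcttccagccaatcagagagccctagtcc
Uqcr11, -100 to -1, chr10:80406822-80406921, - strand: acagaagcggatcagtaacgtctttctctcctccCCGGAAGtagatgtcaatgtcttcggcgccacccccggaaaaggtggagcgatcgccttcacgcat
Uqcrh, -100 to -1, chr4:116075071-116075170, - strand: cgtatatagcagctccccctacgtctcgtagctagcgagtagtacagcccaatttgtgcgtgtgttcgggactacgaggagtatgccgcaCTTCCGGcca
Atp5g3, -100 to -1, chr2:73911327-73911426, - strand: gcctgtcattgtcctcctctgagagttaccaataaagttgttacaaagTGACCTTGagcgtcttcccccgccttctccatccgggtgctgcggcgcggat

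The matches in *Uqcrh* and *Atp5g3* read in the reverse direction. At least 1 of the 4 motifs was in 32 of 64 members (50%) and in 16.45% of genes. The 27025 genes were not limited to those expressed in these libraries, and a comparison with expressed genes alone was not made. A match is a string of letters and these libraries hold no measurement of binding.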

How the data were processed

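RNA from sorted hippocampal microglia was measured by RNA-seq in 10 libraries, and the authors deposited raw counts of reads per gene as whole numbers without normalization. The submitters' processing notes name GRCm38.p6, bcl2fastq 2.19.0, fastp 0.20.0, STAR 2.7.0f, Subread 1.6.4, featureCounts and DESeq2. Strandedness and the treatment of reads with several alignments are not given in the sources used here. Reads that fit several places may be missing from such counts, which bears on genes with copies. Groups came from the sample labels, and 0 columns were left without a sample. The labels do not say whether libraries of a group came from separate animals, so p-values measure the spread between these libraries.

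After filterByExpr (minimum count 10), genes were scaled by TMM and tested over 14481 genes with edgeR 4.0.16 (R 4.3.3, quasi-likelihood F-test, treatment alone, Benjamini-Hochberg adjustment, threshold 0.05). Single genes also had two-sided exact permutation tests over 252 arrangements of log2(CPM + 0.1), with 1 CPM as the alternative pseudocount. DESeq2 1.42.0 and limma 3.58.1 (voom) were alternatives, beside other scalings and filters, libraries left out in turn, GA title prefixes alone, title numbers as a block and removal of length and GC trends. The edgeR, limma-voom and DESeq2 fits with their main settings were checked on simulated counts. Lengths, coordinates and sequences came from GENCODE M21 (GRCm38), with no entry for *Atp5md*. Windows of 100 bases were matched to all annotated transcripts of other genes.

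The members and lists were chosen with earlier results of these data known. Named members were those past an unadjusted p of 0.05, those without overlap, the largest and smallest fold change, the most abundant per complex, the mitochondrial genes, isoform pairs, those nearest the minimum of 100 counts, and listed pathway genes past 0.05. Python 3.11.15, numpy 2.4.6 and matplotlib 3.10.9 were used. The limit given for a count of 0 covers counting error alone, as PCR copies were not told apart.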

Additional observations from a re-analysis of the deposited data

Results flagged for a closer look

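In 5 of 66 groups of 5 libraries examined, 1 library stood farther from the rest than Dixon's critical value of 0.71 allows, and chance alone gives about 1 in 20. In each case it was the PBS library 388_4, at the top of its group. *Atp5g3*, a c-ring subunit gene of ATP synthase, was at 67.0 CPM in 388_4 and 47.0 to 52.8 CPM in the other PBS libraries. *Cox7a2* was at 48.0 CPM, against 32.7 to 36.7 CPM, and *Cox7b* at 32.5 CPM, against 21.4 to 23.8 CPM, both of them small subunits of complex IV. *Ndufs4* was at 37.0 CPM, against 27.7 to 30.3 CPM. *mt-Nd3* was at 0.929 CPM, against 0.497 to 0.595 CPM.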

How the results depend on the processing

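The number of members at an adjusted p under 0.05 was 0 under every alternative run. Leaving out 1 library, the nuclear members lower in GA at an unadjusted p under 0.05 numbered 0 to 2: *Cox6a2* without 388_1, and *Cox6a1* and *Ndufb7* without 388_2, these last named after their values were seen. Leave-one-out values of the nuclear median log2 fold change ran from -0.08 to 0.02, of the mitochondrial median from -0.20 to -0.04, of nuclear members below 0 from 34 to 69, and of the nuclear share of counts (GA minus PBS, percentage points) from -0.0212 to 0.00027. The values of 34, 0.02 and 0.00027 are all without 388_4. Title numbers do not pair the samples, since deviations of same-numbered libraries correlated at -0.11 to 0.04. With the title number as a replicate block, in which 388_4 and 388_5 have no GA partner, 22 of 78 nuclear members (median 0.0368) and 1 of 8 mitochondrial members (median 0.0868) were below 0, and no member was called. Log2 fold changes that changed sign under the block were 0.0341 (*Uqcrc1*), 0.0828 (*Cox4i1*), 0.0583 (*Atp5b*), 0.0092 (*Cox6a2*), 0.0411 (*mt-Co1*), 0.0909 (*mt-Cytb*), 0.0878 (*mt-Nd1*), 0.0598 (*mt-Nd2*), 0.0858 (*mt-Nd4*), 0.1055 (*mt-Nd5*) and 0.1218 (*mt-Nd6*). With length and GC trends removed, the mitochondrial median was -0.024 with 6 of 8 below 0, *mt-Nd5* was at 0.0242 and *mt-Nd6* at 0.1274, and with the 394 libraries alone *Uqcrc1* was at 0.0008. The cause was not tested. Leaving out 1 library, log2 fold changes ran from -0.0739 to 0.0305 (*Atp5b*), -0.1313 to 0.0058 (*Cox4i1*), -0.0704 to 0.0241 (*Uqcrc1*) and -0.1293 to 0.0166 (*mt-Nd6*). *Pprc1* missed an unadjusted p of 0.05 in 6 of 10 fits with 1 library left out (p from 0.00902 to 0.0951 over the 10) and in 4 of 11 other alternatives (p from 0.0053 to 0.744 over the 11). The minimum of 10 counts in every library left *mt-Nd3* untested. *mt-Nd3*, *Cox6b2* and *Ndufs5* had the fewest counts of the members tested (187, 350 and 488 over all libraries) and so the largest relative counting error. The uncounted mitochondrial genes gave no value to compare.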
